A study of Arabidopsis thaliana with 6 samples.

Results

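miR395 is the sulfate-responsive microRNA (miRNA) family of Arabidopsis thaliana. The table lists it as 2 mature sequences of 21 nt, named by the 6 loci MIR395a to MIR395f, out of 294 mature sequences in all. Both are 3p sequences, cut from the 3′ side of the hairpin precursor, and 0 rows name a 5p sequence of the family. The members were taken as every row that names a MIR395 locus with a letter. Small RNA had been sequenced from whole seedlings grown in shaking liquid culture. The treated group received 1 µM epibrassinolide (epiBL, an active form of the brassinosteroids, the plant steroid hormones) for 90 min, and the control group received the solvent alone for 90 min. Each group held 3 biological replicates. Plants of both groups carried the bri1-5 mutation of the brassinosteroid receptor BRI1 together with a Flag-tagged wild-type BRI1 expressed from its own promoter. How many transgenic lines were used and how much sulfate the medium held are not stated in the labels. Exact mature reads summed to 2050074 to 4112329 per epiBL library and 3878714 to 4482479 per control library. The lowest total was that of epiBL replicate 3, in which 3 counts, the limit that a count of 0 allows, equal 1.46 CPM (counts per 1000000 counted reads) for counting error only.

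Sulfate taken up by roots is activated by ATP sulfurylases, plastid and cytosolic enzymes that open the path to cysteine and glutathione. miR395 accumulates when sulfate is scarce, in a manner that depends on the transcription factor SLIM1. It guides cleavage of the mRNAs of the ATP sulfurylases APS1, APS3 and APS4 and of SULTR2;1, a low-affinity sulfate transporter of the vasculature. RNA of whole seedlings was measured, so a change in how many cells hold the miRNA and a change in its amount per cell cannot be told apart.

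The mature sequences are shown first because all counted reads of the family fall on one or the other. Capitals mark the seed, bases 2 to 8 from the 5′ end.
miR395a/d/e-3p: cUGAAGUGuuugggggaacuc
miR395b/c/f-3p: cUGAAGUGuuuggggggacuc
The seed is the same in both, and no other sequence of the table has it. The members differ at 1 base (A17G, with miR395a/d/e-3p as the reference and positions numbered from 1 at its 5′ base). The next most similar sequence of the same length in the table, miR319c-3p, differs from each of them at 11 bases. The rows hold reads identical to the mature sequence, so a read of one member with a single error at base 17 would be counted in the other.

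Each mature sequence had 3 exact matches in the 5 nuclear chromosomes of the TAIR10.1 assembly, and each match lay in an annotated MIR395 hairpin on chromosome 1. MIR395a (9363196-9363288, minus strand), MIR395b (9364471-9364570, plus strand) and MIR395c (9367080-9367179, plus strand) lie within 3984 bases. MIR395d (26269979-26270078, minus strand), MIR395e (26272776-26272870, minus strand) and MIR395f (26273858-26273969, plus strand) lie within 3991 bases, 16902799 bases further along. Each cluster can give both mature sequences: the first holds 1 locus of miR395a/d/e-3p and 2 of miR395b/c/f-3p, and the second holds 2 and 1. The 3 loci of miR395a/d/e-3p are on the minus strand and the 3 of miR395b/c/f-3p on the plus strand. None of the 6 hairpins overlaps an annotated protein-coding gene. The closest lie 178 bases (MIR395b, before AT1G26976) and 225 bases (MIR395f, before AT1G69800) from one. Reads of identical sequence cannot be assigned to a locus or a cluster.

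**Figure D1:**
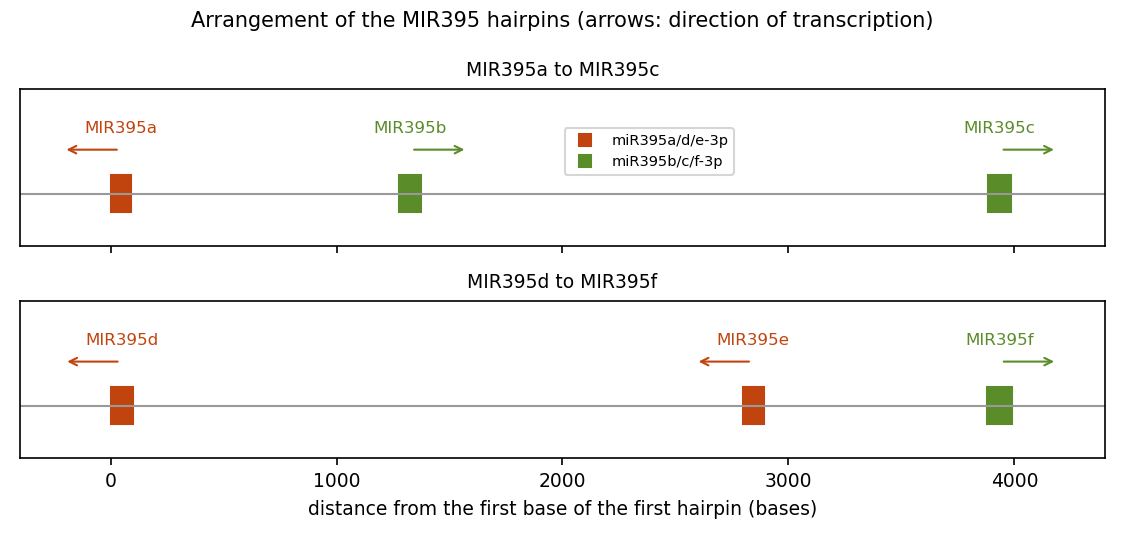
Map of the MIR395 hairpins drawn to scale, with distance in bases from the first base of the first hairpin of each cluster on the x axis, colours for the mature sequence and arrows for the direction of transcription. Each cluster holds loci of both mature sequences.

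The hairpins themselves differ more than the mature sequences. Between pairs of hairpins, identity over a global alignment ran from 62.1% (MIR395e and MIR395f) to 97.0% (MIR395b and MIR395c). One hairpin of each mature sequence is shown, as DNA of the transcribed strand from RefSeq's TAIR10.1, with the counted 3p sequence in capitals.
MIR395a: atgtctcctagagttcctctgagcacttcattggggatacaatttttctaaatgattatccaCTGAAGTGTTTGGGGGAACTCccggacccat
MIR395b: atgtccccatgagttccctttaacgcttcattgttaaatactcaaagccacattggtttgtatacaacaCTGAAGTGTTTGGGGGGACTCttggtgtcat
The counted sequence occupies bases 63 to 83 of the MIR395a hairpin and bases 70 to 90 of the MIR395b hairpin.

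The sites in the known target mRNAs show what the single base difference touches. The best ungapped match to miR395a/d/e-3p in each mRNA is written 5′ to 3′ as RNA, with capitals for bases in Watson-Crick pairs.
APS1: GAGUUCCuCCAAACuCUUCAu
APS3: GAGUUCCuCCAAACuCUUCAu
APS4: GAGUUCCuCCAAACACUUCAu
SULTR2;1: aAGUUCuCCCAAACACUUCAa
All 4 lie in the annotated coding sequence. They are on chromosome 3 at 8113164-8113184 (APS1, plus strand), chromosome 4 at 8414958-8414978 (APS3, minus strand), chromosome 5 at 17591121-17591141 (APS4, minus strand) and chromosome 5 at 3193268-3193288 (SULTR2;1, plus strand) of TAIR10.1. With miR395a/d/e-3p, the APS4 site had 1 mismatch and 1 G:U pair, and those of APS1, APS3 and SULTR2;1 each had 2 mismatches and 1 G:U pair. With miR395b/c/f-3p, each of the 4 sites had 1 more G:U pair, at position 17 of the miRNA, where all 4 sites hold U, and no further mismatch. When a mismatch was counted as 1 and a G:U pair as 0.5, 2 of 31342 genes with an annotated mRNA held a site as good as that of APS4 for miR395a/d/e-3p, APS4 included, and 9 held one as good as those of the other 3. These are matches of letters. No mRNA was measured in the series.

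After 90 min of epiBL, both miR395 sequences rose relative to solvent controls, miR395a/d/e-3p 1.59-fold and miR395b/c/f-3p 1.32-fold. The more abundant member had the smaller estimate. Levels are CPM with library totals scaled by TMM (trimmed mean of M-values) factors, unless said otherwise.

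miR395a/d/e-3p was counted 508, 583 and 259 times in epiBL replicates 1, 2 and 3, against 398, 347 and 395 times in control replicates 1, 2 and 3. The count of epiBL replicate 3 was the lowest of the 6, in the library with the lowest total. After scaling, miR395a/d/e-3p stood at 144, 135 and 145 CPM in epiBL replicates 1, 2 and 3, against 88.9, 81.1 and 95.8 CPM in control replicates 1, 2 and 3. All 3 epiBL libraries lay above all 3 control libraries, and epiBL replicate 3 was the highest. The means were 141 ± 5.22 CPM with epiBL and 88.6 ± 7.34 CPM in controls (SD, n = 3 each). By the quasi-likelihood test of edgeR, Benjamini-Hochberg adjusted over all 148 sequences tested, the log2 fold change was 0.67 (SE 0.11, 95% interval 0.44 to 0.91, adjusted p = 0.000877).

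miR395b/c/f-3p was counted 960, 1337 and 572 times in epiBL replicates 1, 2 and 3, against 932, 958 and 1024 times in control replicates 1, 2 and 3. The raw counts of the groups thus overlapped. After scaling it stood at 272, 310 and 320 CPM in epiBL replicates 1, 2 and 3, against 208, 224 and 248 CPM in control replicates 1, 2 and 3. The scaled groups did not overlap, with epiBL replicate 1 the closest to the controls. The means were 301 ± 25.4 CPM with epiBL and 227 ± 20.2 CPM in controls (SD, n = 3 each). The log2 fold change was 0.40 (SE 0.11, 95% interval 0.18 to 0.63), with an adjusted p of 0.0276 in edgeR's test.

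**Figure D2:**
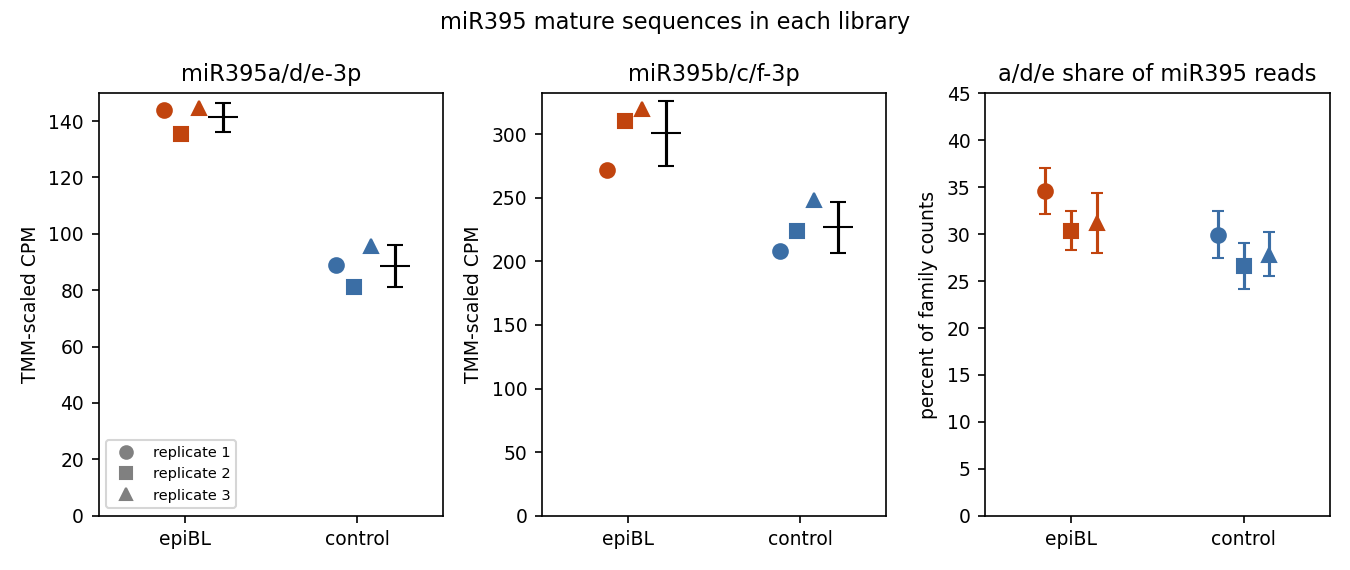
Left and middle, TMM-scaled CPM of each mature sequence in every library, epiBL left of control, with the mean and SD beside the points. Right, miR395a/d/e-3p as a percentage of all miR395 counts, with 95% exact binomial intervals for counting error. The scaled levels of the groups do not overlap for either sequence.

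Both of the 2 members were thus called higher, where 8.11% of the 148 sequences tested were called in either direction, 2.70% higher and 5.41% lower. Both also had groups that did not overlap, with epiBL above, as 10.1% of the sequences tested did, and 27.7% had no overlap in either direction. Of all 294 rows ordered by total count, miR395b/c/f-3p was at rank 44 and miR395a/d/e-3p at rank 60, and neither had fewer than 259 counts in any library. The sequences next to them in mean level did not pass the test. miR861-3p lay next above miR395a/d/e-3p and its log2 fold change was 0.35 (SE 0.11, adjusted p = 0.0599), and miR393a-3p, next below, had -0.32 (SE 0.11, adjusted p = 0.0771). miR319c-3p, next above miR395b/c/f-3p, had 0.16 (SE 0.12, adjusted p = 0.407), and miR447a-3p, next below, had -0.02 (SE 0.11, adjusted p = 0.941).

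**Figure D3:**
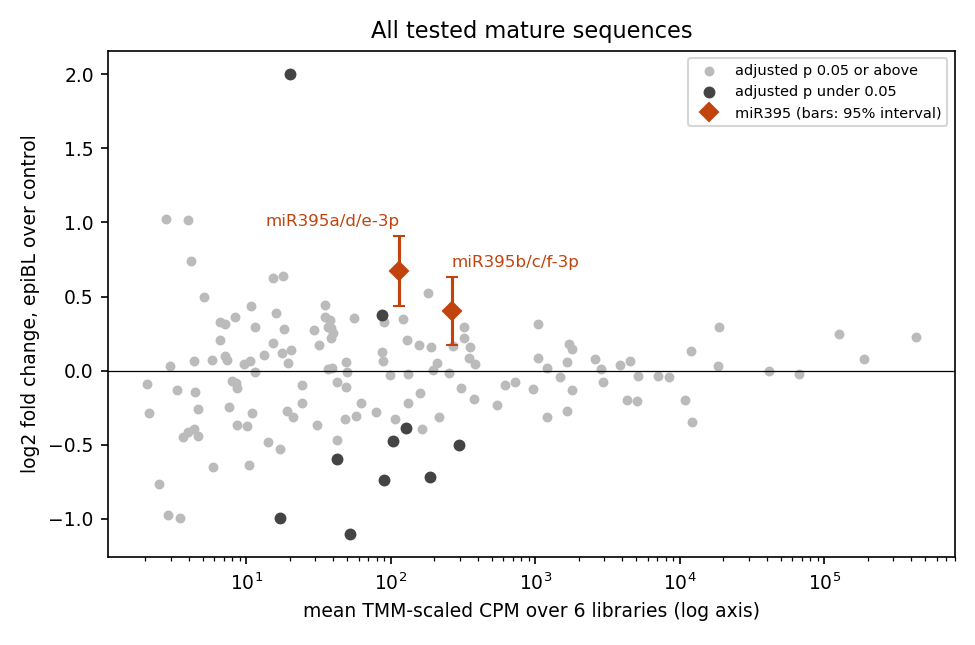
Log2 fold change (epiBL over control) against mean TMM-scaled CPM (log axis) of the 148 sequences tested, with dark points for an adjusted p under 0.05 and diamonds with 95% intervals for miR395. Both miR395 sequences lie above 0 among sequences of middle abundance.

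The call of miR395a/d/e-3p held in all 14 other settings tried, with a log2 fold change between 0.54 and 0.75. That of miR395b/c/f-3p held in 10 of the 14. It was lost without epiBL replicate 3 (log2 fold change 0.38, adjusted p = 0.123), without control replicate 1 (0.35, adjusted p = 0.133), without control replicate 2 (0.39, adjusted p = 0.0723), and when libraries were scaled by their totals alone (0.27, adjusted p = 0.286). Scaled in that last way, miR395b/c/f-3p stood at 257, 325 and 279 CPM in epiBL replicates 1, 2 and 3, against 208, 247 and 260 CPM in control replicates 1, 2 and 3. The groups then overlapped, since epiBL replicate 1 was below control replicate 3. miR395a/d/e-3p, at 136, 142 and 126 CPM with epiBL against 88.8, 89.5 and 100 CPM in controls, stayed apart. Scaling by totals put the median log2 fold change of all sequences tested at -0.13, against 0.0046 with TMM factors. Above that median, miR395a/d/e-3p was at 0.66 and miR395b/c/f-3p at 0.39, close to their values above the median with TMM factors, 0.67 and 0.40. A change of scaling moves all sequences by nearly the same amount, so these distances could hardly have differed. They are no evidence on the lost call.

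**Figure D4:**
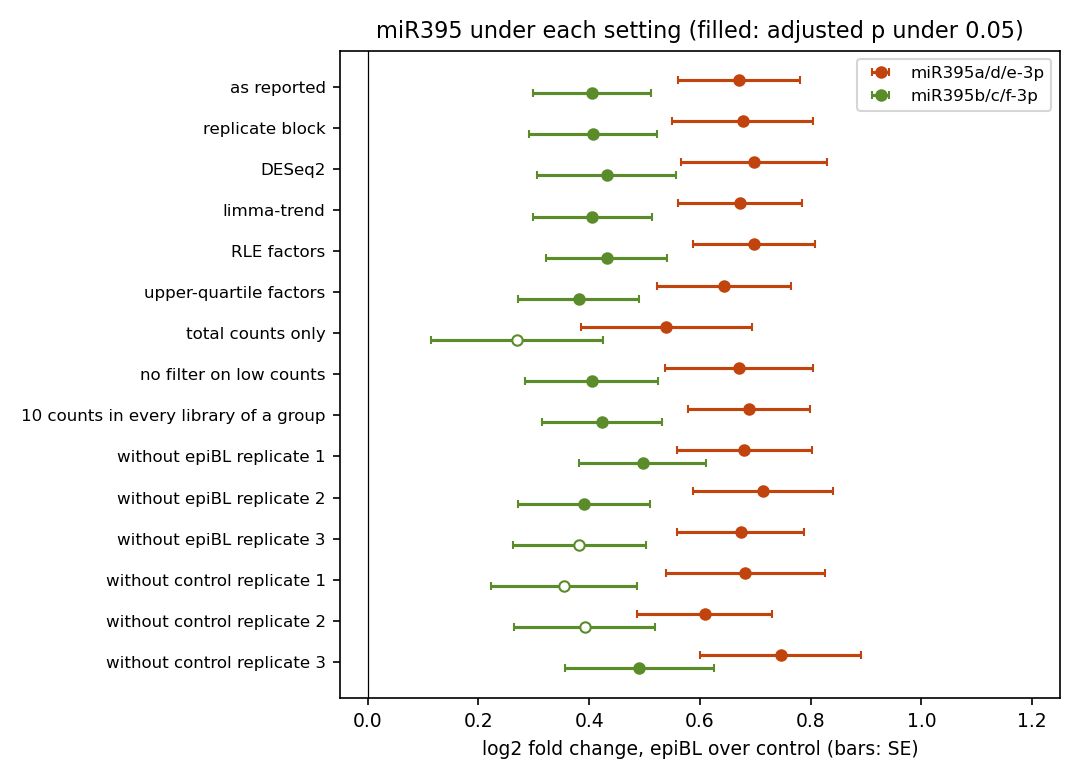
Log2 fold change (epiBL over control, bars for the SE) of both miR395 sequences as reported and under each other setting, filled where the adjusted p is under 0.05. miR395a/d/e-3p is filled throughout, and miR395b/c/f-3p is open in 4 settings.

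Summed over both sequences, the family had 1468, 1920 and 831 counts in epiBL replicates 1, 2 and 3, against 1330, 1305 and 1419 counts in control replicates 1, 2 and 3. That was 416, 446 and 465 CPM with epiBL, against 297, 305 and 344 CPM in controls, with no overlap between the groups. The family mean was 442 ± 24.7 CPM with epiBL and 315 ± 25.1 CPM in controls (SD, n = 3 each). The fit on family sums, which used TMM factors estimated from those sums, gave a 1.42-fold rise. In edgeR's test on 85 families, each summed over its rows, miR395 had the lowest p-value (log2 fold change 0.51, SE 0.10, adjusted p = 0.00123). In the test on 148 single sequences, miR395a/d/e-3p was at rank 4 by p-value and miR395b/c/f-3p at rank 10. Ranks 1, 2 and 3 were miR156g-5p, miR398a-5p and miR397a-5p. The sums of their families had log2 fold changes of 0.07, 0.004 and -0.19 and were not called, so the first place depends on the summing. Of the 85 families, 8.24% were called in either direction, 4.71% higher and 3.53% lower. Groups did not overlap in 25.9% of the families, and lay higher with epiBL in 11.8%. The adjusted p of miR395 was 0.0861 without epiBL replicate 3, 0.145 with upper-quartile factors and 0.106 with scaling by totals. As a share of all exact mature reads, without TMM factors, the family took 422 ± 39.5 CPM with epiBL and 331 ± 32.4 CPM in controls (SD, n = 3 each). These shares did not overlap between the groups (two-sided exact permutation test, p = 0.1, the smallest p that 3 against 3 libraries allow).

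miR395a/d/e-3p made up 32.0 ± 2.25% of the family counts with epiBL and 28.1 ± 1.69% in controls (SD, n = 3 each). This comparison needs no scaling, since both counts come from the same library. The share was 34.6% in epiBL replicate 1 (95% exact Clopper-Pearson interval 32.2 to 37.1), 30.4% in epiBL replicate 2 (28.3 to 32.5) and 31.2% in epiBL replicate 3 (28.0 to 34.4). In controls it was 29.9% in replicate 1 (27.5 to 32.5), 26.6% in replicate 2 (24.2 to 29.1) and 27.8% in replicate 3 (25.5 to 30.2). The groups were separated by a narrow gap, between epiBL replicate 2 and control replicate 1, whose counting intervals overlapped. The log2 ratio of miR395a/d/e-3p to miR395b/c/f-3p was -1.09 ± 0.15 with epiBL and -1.36 ± 0.12 in controls (SD, n = 3 each), a difference of 0.27. The two-sided exact permutation test gave p = 0.1, the smallest p that this test can give with 3 against 3 libraries, so it could not fall under 0.05. In every library miR395b/c/f-3p was the more abundant, by 1.89 to 2.29 times with epiBL and by 2.34 to 2.76 times in controls.

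The authors' deposited table gives for the same libraries a fold change of 1.60 for miR395a/d/e-3p with an unadjusted p of 2.37e-08, and of 1.34 for miR395b/c/f-3p with an unadjusted p of 0.000762. Adjusted by Benjamini-Hochberg over the 294 rows of the authors' deposited table, these p-values became 1.74e-06 and 0.0224.

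Other miRNAs that respond to nutrient supply are set beside miR395. They are miR399, miR827, miR2111 and miR778 for phosphate, miR169, miR393, miR826 and miR5090 for nitrogen, and miR397, miR398, miR408 and miR857 for copper. Of 34 rows of these families with miR395 included, 25 were tested, and the 2 called higher were the 2 miR395 sequences. Of the 23 others tested, 0 were called higher and 5 lower, and their median log2 fold change was -0.23, against 0.0046 over all 148. Over all 148, 2.70% were called higher and 5.41% lower. At an unadjusted p under 0.05, 5 of the 25 were higher, miR395 included. The share of all sequences at that threshold was not counted. DESeq2 called 3 higher at the adjusted threshold, against 8 of all 148. The number higher was 1 without epiBL replicate 3, without control replicate 1 or without control replicate 2. Of all sequences tested, 2 of 155, 4 of 151 and 2 of 154 were then higher. The number lower was 2 without epiBL replicate 3, without control replicate 2 or without control replicate 3. Of all sequences tested, 3 of 155, 3 of 154 and 3 of 153 were then lower. Without epiBL replicate 2 the number lower was 8, against 13 of all 153. With scaling by totals it was 9, against 15 of all 148. In the phosphate group, 1 of 8 tested was called, miR399d-3p, whose family represses the ubiquitin-conjugating enzyme PHO2 (log2 fold change -0.39, SE 0.11, adjusted p = 0.0356). The most abundant phosphate miRNAs were miR827-3p, which represses the ubiquitin ligase NLA (0.13, SE 0.10), and miR399b/c-3p (0.06, SE 0.10). Neither passed, nor did miR2111a-3p (0.35, SE 0.16), miR2111a/b-5p (0.33, SE 0.16) and miR2111b-3p (0.37, SE 0.16, named after its value was seen). miR399a-3p (-0.27, SE 0.09, adjusted p = 0.0682) and miR399f-3p (-0.31, SE 0.10, adjusted p = 0.0599) lay below 0 and did not pass. They too were named after their values were seen. Summed over its rows, however, miR2111 was called higher in edgeR's test on 85 families (0.37, SE 0.11, adjusted p = 0.0332). In that family test the sums of miR169 (-0.81, SE 0.19, adjusted p = 0.0112) and miR857 (-0.37, SE 0.11, adjusted p = 0.0332) were called lower. Of all 85 families, 4.71% were called higher and 3.53% lower. In the nitrogen group, 1 of 6 was called, miR169h/i/j/k/l/m/n-5p, of a family that represses NF-YA transcription factors (-0.99, SE 0.26, adjusted p = 0.0276). None of the 3 miR393 sequences passed, with miR393a-3p (-0.32, SE 0.11) and miR393b-3p (-0.23, SE 0.10) below 0 and miR393a/b-5p (0.29, SE 0.10, named after its value was seen) above 0. In the copper group, 3 of 9 were called, miR398a-5p (-1.11, SE 0.15, adjusted p = 0.000236), miR397a-5p (-0.74, SE 0.11, adjusted p = 0.000357) and miR408-5p (-0.50, SE 0.13, adjusted p = 0.027), all lower. The abundant copper miRNAs miR398b/c-3p, which represses copper/zinc superoxide dismutases (-0.02, SE 0.10), miR397b-5p (-0.20, SE 0.10) and miR408-3p (-0.20, SE 0.10) did not pass, nor did miR857-3p (-0.39, SE 0.12). miR398a-3p, from the same hairpin as miR398a-5p (0.05, SE 0.19), and miR398b/c-5p (-0.15, SE 0.10) did not pass either. Those last sequences were named after their values were seen.

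**Figure D5:**
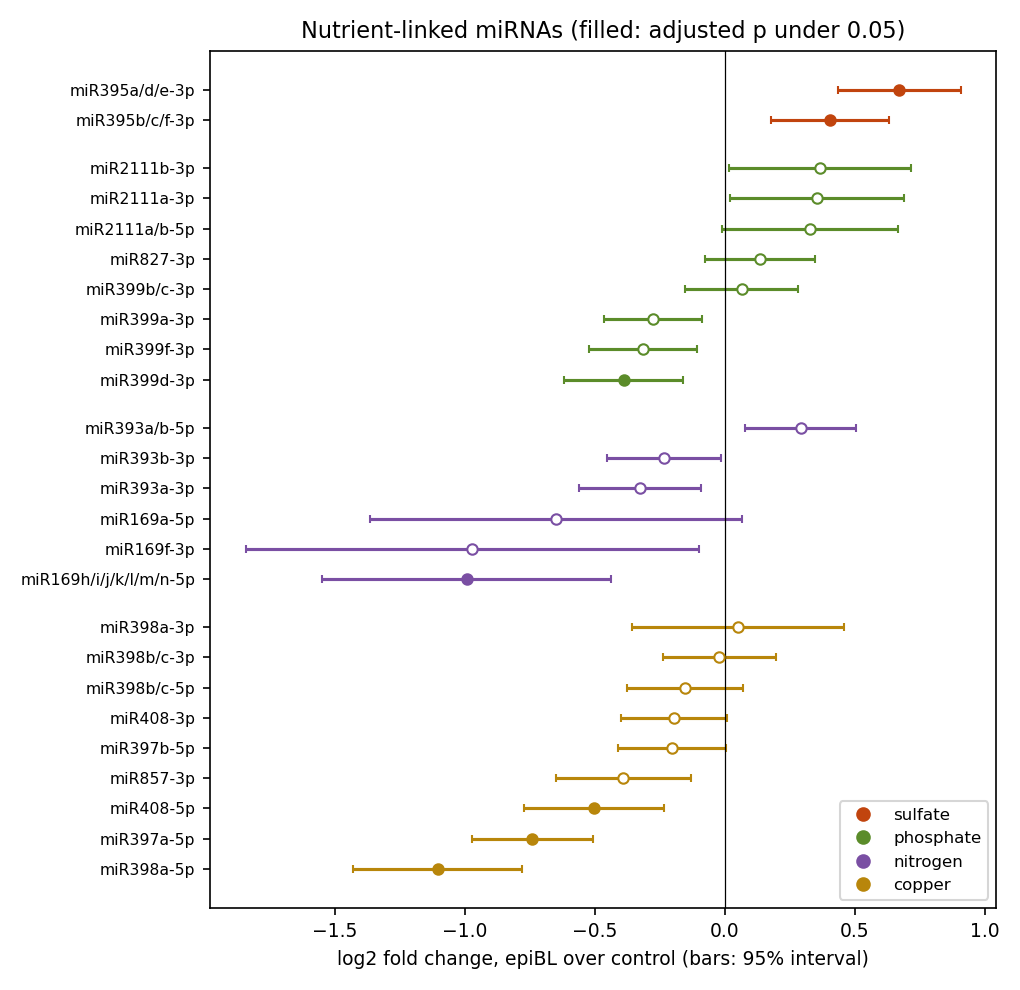
Log2 fold change (epiBL over control) with 95% intervals of the 25 nutrient-linked sequences tested, grouped by nutrient and filled where the adjusted p is under 0.05. The 2 sulfate sequences are the only filled points above 0, and the 5 other filled points lie below 0.

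The sequences whose levels followed the miR395 sum most closely over the 6 libraries were picked by Pearson's r of log2 CPM among 146 others. They were miR156g-5p (r = 0.95), miR8166-5p (r = 0.93), miR170/miR171a-5p (r = 0.92), miR171c-5p (r = 0.91) and miR8183-5p (r = 0.89). These are descriptions over 6 libraries that fall into the 2 groups, so a sequence that is higher with epiBL ranks high by that alone. In all 5 the epiBL libraries lay above the control libraries. miR156g-5p (log2 fold change 2.00, SE 0.22) and miR170/miR171a-5p (0.38, SE 0.11) were called in edgeR's test. miR8166-5p (1.02, SE 0.36, adjusted p = 0.0834), miR171c-5p (0.63, SE 0.23, adjusted p = 0.0976) and miR8183-5p (0.22, SE 0.10, adjusted p = 0.165) were not. Reads of miR8166-5p were few. It had 21, 19 and 10 counts in epiBL replicates 1, 2 and 3, against 9, 11 and 13 in control replicates 1, 2 and 3.

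The 300 bases before each annotated hairpin were searched on both strands for CACGTG (the G-box), CGTGCG and CGTGTG, which the brassinosteroid factors BZR1 and BES1 are known to bind in some promoters, and for GAGAC, the core of a sulfur-responsive element. The annotated hairpin start is not the start of transcription, and the windows are from TAIR10.1. CACGTG and CGTGCG were in 0 of the 6 windows, against 3.99% and 1.53% of the windows before all 326 annotated miRNA hairpins. CGTGTG was in 1 of 6, that of MIR395b, against 7.06% of all. GAGAC was in 5 of 6, every one but MIR395e, against 33.7% of all. The hairpins of MIR395b and MIR395c are 97.0% identical and their windows are much alike, so these do not count as separate matches. The searched motifs do not overlap in the windows of the family. The window before MIR395b is shown because it holds both kinds of motif, CGTGTG as its complement CACACG, with both motifs in capitals (chr1:9364171-9364470, TAIR10.1, plus strand).
MIR395b upstream: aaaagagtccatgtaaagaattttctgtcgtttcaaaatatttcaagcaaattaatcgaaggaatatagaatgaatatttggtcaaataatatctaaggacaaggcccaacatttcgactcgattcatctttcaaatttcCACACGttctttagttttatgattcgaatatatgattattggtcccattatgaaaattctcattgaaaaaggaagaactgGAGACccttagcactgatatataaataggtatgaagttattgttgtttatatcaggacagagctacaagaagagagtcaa
A match is a description of the letters and does not show that a factor binds there.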

How the data were processed

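The authors deposited 1 table of raw counts of reads identical to each of 294 mature miRNA sequences of 19 to 24 nt, grouped by sequence, per the file headers. Trimmed, extended or edited reads are not in these counts, and bri1-5 comes from another accession than the reference, so a variant in a mature sequence would remove its reads. RNA was isolated with mirVana and libraries made with TruSeq small RNA reagents, per the labels' protocols. The build is TAIR10, per the submitters' processing notes. No source used here names the aligner or the miRNA database release. The table also holds the authors' unadjusted p-value, its −log10, a signed fold and its log2, which per the file headers come from a test called EDGE. Its header says 0 min against 90 min. The labels give 90 min for both groups and were followed.

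The tools were edgeR 4.0.16, DESeq2 1.42.0 and limma 3.58.1 in R 4.3.3, with Python 3.11.15, scipy 1.17.1 and Biopython 1.88. filterByExpr (minimum count 10, total 15) kept 148 sequences. TMM-scaled counts were tested with edgeR's robust quasi-likelihood F test without a block, with a threshold of 0.05 on the Benjamini-Hochberg adjusted p, and the procedure was tested on simulated data. Each SE is the size of the log2 fold change over √F, and the common biological coefficient of variation was 10.9%. Replicates are labelled biological with no mention of separate cultures, and p-values then reflect only how much these libraries vary, which may be technical. No 2 libraries of a group agreed within sampling noise. No molecular identifiers are stated, so intervals and floors cover counting error only. The members, lists and tests were chosen with earlier results of these data known. The miRNAs named are the miR395 rows, 2 rows of each nutrient family (lowest p and highest mean, which can coincide), the 5 most alike in pattern and the neighbours in mean CPM. Further nutrient miRNAs are marked as named after their values were seen.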

Additional observations from a re-analysis of the deposited data

How the results depend on the processing

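For miR395a/d/e-3p all 14 other settings kept direction and call, with log2 fold changes of 0.61 to 0.75 when 1 library was left out. For miR395b/c/f-3p these were 0.35 to 0.50, with the call lost in 3 of 6, and 0.27 with scaling by totals (adjusted p = 0.286). For the family sum they were 0.47 to 0.54, with the call lost without epiBL replicate 3, and 0.35 with scaling by totals (adjusted p = 0.106) and 0.53 with upper-quartile factors (adjusted p = 0.145). The number of miR395 sequences called was 1 with scaling by totals and 1 to 2 with 1 library left out. Of the nutrient miRNAs, the number higher was 1 with scaling by totals, 5 at an unadjusted p under 0.05 and 1 to 3 with 1 library left out. The number lower was 9 with scaling by totals, 9 at an adjusted p under 0.1, 11 at an unadjusted p under 0.05 and 2 to 8 with 1 library left out. For these changes, thresholds aside, the cause was not tested. Scaling by totals called 2 of all 148 sequences higher and 15 lower, against 4 and 8 as reported. With 1 library left out, 2 to 12 of all sequences tested were higher and 3 to 13 lower. The shares of all sequences at the looser thresholds were not counted, so the nutrient counts there have nothing to be set against. The difference in log2 ratio was 0.19 to 0.33 and that in family share 68.0 to 105 CPM with 1 library left out, and no direction turned. The difference in family share was 90.5 CPM as reported, 126 CPM of TMM-scaled totals and 187 CPM of totals without the most abundant sequence. The denominators differ, so these differences are not on one scale and their sizes cannot be compared. Calls over all sequences tested numbered 12 as reported, 22 with a replicate block, 25 without epiBL replicate 2, 7 without control replicate 3, and 5 each when either epiBL replicate 3 or control replicate 2 was absent. With the block, the log2 fold changes were 0.68 (adjusted p = 1.86e-05) for miR395a/d/e-3p, 0.41 (adjusted p = 0.00894) for miR395b/c/f-3p and 0.51 for the family. The numbers share no stated source, and same-numbered libraries had correlations of deviations of -0.09, 0.14 and -0.11, with 2 of 6 libraries closest to their own number. Depth limits the shares most in epiBL replicate 3, which had 831 miR395 counts.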

Other observations

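Outside APS1, APS3, APS4 and SULTR2;1, the scan of 31342 genes for ungapped sites gave a few others of like or better score for miR395a/d/e-3p. AT2G28780 had 1 mismatch and 1 G:U pair, as APS4 did, and kept that count for miR395b/c/f-3p, whereas APS4 had 1 more G:U pair with it. GUN5, the H subunit of magnesium chelatase in chlorophyll synthesis, had 0 mismatches and 4 G:U pairs with miR395a/d/e-3p and 5 with miR395b/c/f-3p. AT1G50930 had 2 mismatches and 0 G:U pairs with miR395a/d/e-3p, and LAC7, a laccase, had 2 mismatches and 1 G:U pair. Scores of up to 4 were found in 62 genes for miR395a/d/e-3p and 41 for miR395b/c/f-3p. These are matches of letters only, and no cleavage or mRNA level was measured in the series.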
